A study of Mus musculus with 4 samples.

Results

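Signals of 49 genes that encode lysosomal hydrolases, their helper proteins and lysosomal membrane proteins were examined, of 24895 genes named on the arrays. Members were found by their gene names on the non-control probes, and a gene with several probes was read from its brightest one. They comprised 29 lumenal enzymes, 16 membrane proteins and 4 other members, namely the activator proteins Psap and Gm2a, the cholesterol carrier Npc2, and Gnptg, a subunit of the Golgi enzyme that tags hydrolases for transport. The 4 were kept apart from both classes.

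The cells were RAW264, a line of macrophage-like cells established from the BALB/c strain, and all cultures were transfected with small interfering RNA (siRNA) 48 h before the treatment period. The siRNA targeted the transcripts of Tfe3 and Tfeb together, or green fluorescent protein (GFP), which serves as a control because mouse cells lack it. The 4 groups were siTfe3/Tfeb cells with 500 µM ferric chloride for 24 h, siTfe3/Tfeb cells without iron, siGFP cells with the same iron treatment, and siGFP cells without iron. Each group was 1 culture on 1 single-colour array, so every difference below sets 1 array against another, with no replicates and therefore no test, standard error or p-value.

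Lysosomes are acidic organelles in which hydrolases break down proteins, lipids, glycans and nucleic acids. Most hydrolases reach them through a phosphate tag on mannose that the Golgi adds, and their membrane carries glycoproteins, ion channels and transporters that let the products out. Transcription factors of the MiT/TFE family, to which Tfe3 and Tfeb belong, bind an E-box motif in the promoters of many lysosomal genes, and macrophages hold many lysosomes for the material they engulf.

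The E-box of these factors was looked for in promoter windows of 300 bases, from 250 before to 50 after the annotated transcription start (RefSeq, build GRCm38.p6). A window was given for 44 of the 49 members, all but Galns, Aga, Asah1, Npc1 and Tmem55a. The letters TCACGTG, on either strand, stood in the windows of 13 of the 44 (29.5%), against 4.29% of 27025 genes in the promoter table and 6.63% of the 10987 of them with a signal well above background on all 4 arrays. The core CACGTG stood in the same 13 members and in 8.09% of all genes, and every match of TCACGTG holds it. The palindrome TCACGTGA, which contains TCACGTG on both strands, stood in 6 members (13.6%), against 1.13% of all genes and 2.02% of detected genes. The motif was described on lysosomal promoters in the first place, so its share among lysosomal genes is no independent observation, and a match is a run of letters and not a shown binding site. The 6 promoters with the palindrome are shown because they carry the longest form of the motif that was looked for. Capitals mark each match, and the stretches run along the strand of the gene.
Clcn7, chr17:25133345-25133415, plus strand: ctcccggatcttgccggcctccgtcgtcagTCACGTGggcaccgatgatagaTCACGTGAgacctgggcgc
Gnptg, chr17:25240101-25240168, minus strand: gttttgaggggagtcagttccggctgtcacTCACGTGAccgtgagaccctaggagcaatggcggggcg
Mcoln1, chr8:3500417-3500510, plus strand: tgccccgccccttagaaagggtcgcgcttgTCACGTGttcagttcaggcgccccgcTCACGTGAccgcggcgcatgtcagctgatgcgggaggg
Cln3, chr7:126583321-126583415, minus strand: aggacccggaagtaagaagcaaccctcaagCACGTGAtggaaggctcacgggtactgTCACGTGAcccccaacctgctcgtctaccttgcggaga
Tmem55b, chr14:50930867-50931086, minus strand: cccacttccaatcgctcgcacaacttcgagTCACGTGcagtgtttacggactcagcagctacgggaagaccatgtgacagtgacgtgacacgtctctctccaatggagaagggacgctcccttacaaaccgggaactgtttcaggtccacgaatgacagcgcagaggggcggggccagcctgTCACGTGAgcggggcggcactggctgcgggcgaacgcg
Gla, chrX:134601163-134601255, minus strand: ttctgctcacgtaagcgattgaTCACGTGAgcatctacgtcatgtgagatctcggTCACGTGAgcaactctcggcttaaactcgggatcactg

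The palindrome began 6 bases after the start of Clcn7, 46 bases before that of Mcoln1, 55 before that of Tmem55b (RefSeq symbol Pip4p1) and 122 before that of Cln3. In Gnptg it began 22 bases before one annotated start and 2 after another, and Gla held it at both 228 and 195 bases before the start. The remaining 7 members with a match were the enzyme genes Gaa, Sgsh, Lgmn, Glb1, Naglu and Arsa and the membrane protein gene Lamp1, which held 4 matches between 62 and 16 bases before its start. By class, 7 of 26 lumenal enzymes, 5 of 14 membrane proteins and 1 of 4 other members with a window had a match.

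**Figure D1:**
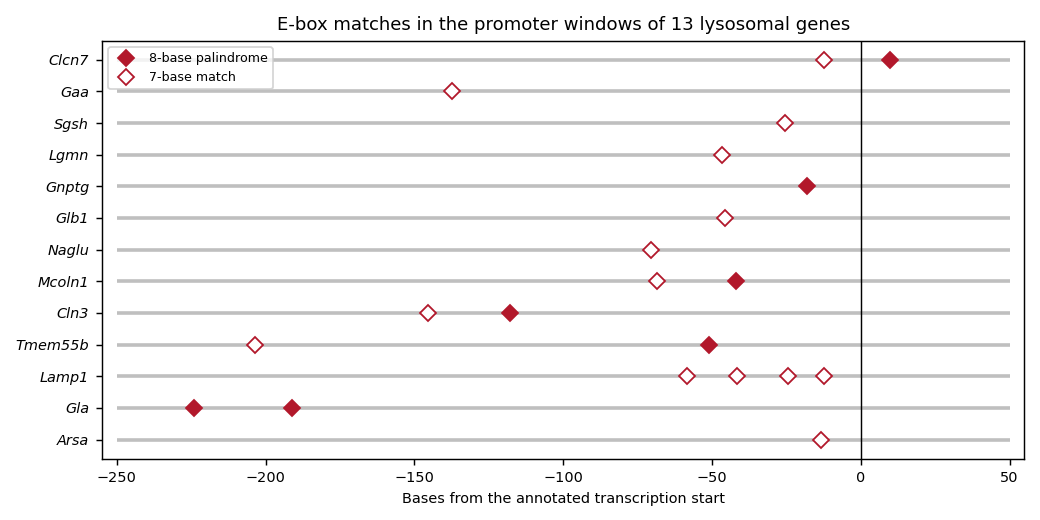
Positions of the E-box in the promoter windows of the 13 members that hold it, in bases from the annotated transcription start (horizontal axis), one gene per row. Filled diamonds are the palindrome, open diamonds the shorter match. Lamp1 holds 4 shorter matches and Gla 2 palindromes. Gnptg is drawn from the annotated start that follows its match.

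The arrays carried 56605 non-control probes, and 13866 of the 24895 genes were well above background on all 4. The 75th percentile of the processed signal, which scales each array, was 593 in siTfe3/Tfeb cells with iron, 636 in siTfe3/Tfeb cells without iron, 627 in siGFP cells with iron and 619 in siGFP cells without iron, and no spot was saturated. All 12 macrophage markers were well above background on every array, with summed scaled signals between 1076 and 1272. The same held for 1 of 5 fibroblast, 0 of 5 epithelial, 1 of 4 endothelial and 2 of 6 lymphocyte markers, whose summed signals were at most 1.68 for any of these types. Precision is limited by the 1 array per group, and in bulk RNA fewer cells of a kind and less RNA per cell cannot be told apart.

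The targeted transcripts were lower for Tfe3 and not clearly for Tfeb. The scaled signal of Tfe3, that is its processed signal divided by the 75th percentile of the array, was 12.3 in siTfe3/Tfeb cells with iron, 12.2 in siTfe3/Tfeb cells without iron, 18 in siGFP cells with iron and 20.1 in siGFP cells without iron. Tfe3 thus stood at 68.4% of the siGFP level with iron and 60.6% without. The brightest Tfeb probe stood at 112% with iron and 91.0% without, and the other 3 Tfeb probes at 90.7% to 95.9% with iron and 88.3% to 105% without. Directions given below for the arrays labelled siTfe3/Tfeb therefore concern cells with a partial loss of Tfe3 signal and with Tfeb signal near that of siGFP cells. Of the related factors, Mitf stood at 96.6% with iron and 93.7% without. Tfec, a dim transcript with scaled signals of at most 0.0949 (spot SD 0.32), stood at 103% with iron and 63.7% without, and was higher with iron by 1.15 in siTfe3/Tfeb cells and 0.46 in siGFP cells.

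All 49 members were well above background on all 4 arrays, so every member enters every comparison. The error of a difference is known only from 300 probes spotted 10 times on each array. Their spread gave an SD of a log2 difference of 0.063 for bright probes, 0.10 for scaled log2 levels from 0 to 2, 0.11 from -2 to 0 and 0.32 below -2. It reflects the printing and reading of spots, not how cultures vary. For the 3 lower levels it was estimated from only 8, 6 and 45 probe and array combinations. None of the 49 members differed 2-fold in any comparison, so differences are described against a smaller step, with 1 array at least 25% higher or 20% lower than the other (0.32 or -0.32 on the log2 scale).

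The siGFP array without iron was the lowest of the 4 for 27 of the 49 members, against 18.6% of the 13866 genes. This held for 16 of 29 lumenal enzymes and 9 of 16 membrane proteins. It was the highest array for 2 members, against 25.1% of all genes. The highest array was that of siTfe3/Tfeb cells with iron for 18 members (18.4% of all genes), that of siTfe3/Tfeb cells without iron for 13 (30.3% of all genes) and that of siGFP cells with iron for 16 (26.2% of all genes). The iron difference in siGFP cells and the siRNA difference without iron share the siGFP array without iron, so the 2 are not independent of each other. The same array also enters the difference of iron responses, and a low value on it lowers that difference.

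Other probes of the members often differed from the brightest one. They include dim probes, at levels where the spot SD reaches 0.32, and an Arsb probe on the strand opposite to the gene. Measured were 35 to 38 of them per comparison, and their sign was that of the brightest probe in 22 of 38 for iron in siTfe3/Tfeb cells, 26 of 35 for iron in siGFP cells, 30 of 37 between siRNAs with iron, 25 of 35 between siRNAs without iron and 20 of 35 for the difference of iron responses.

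**Figure D2:**
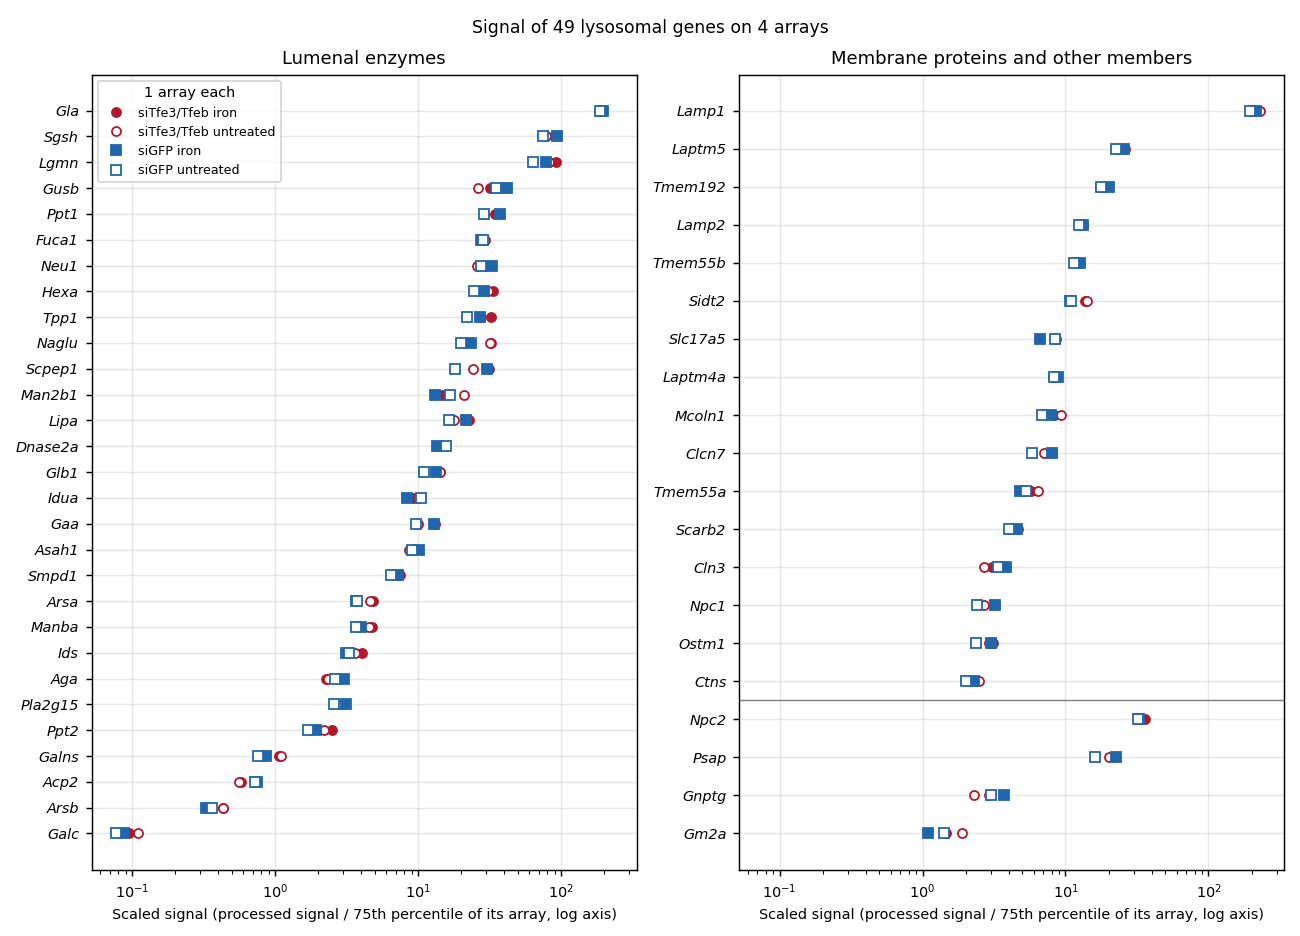
Scaled signal (log axis, processed signal divided by the 75th percentile of its array) of the brightest probe of each member on the 4 arrays. Lumenal enzymes are on the left, membrane proteins on the right with the 4 other members under the line. For 27 of 49 members the open blue square, siGFP without iron, is the lowest; levels of different genes come from different probes and are not comparable.

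With iron, lysosomal genes stood slightly higher in siGFP cells. Of the 49 members, 38 were above 0, against 46% of 14281 genes measured, with a median log2 difference of 0.19 against -0.02 for all genes. At least 25% higher were 9 members (18.4%), against a background of 10.5%: Scpep1, Psap, Clcn7, Npc1, Gaa, Lipa, Ppt1, Ostm1 and Sgsh. At least 20% lower were 4 members (8.16%), against 9.1%: Gm2a, Slc17a5, Man2b1 and Idua. The median was 0.20 over the lumenal enzymes (22 of 29 above 0) and 0.19 over the membrane proteins (13 of 16 above 0). Over all genes, 1.4% passed 2-fold upward and 0.266% downward.

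In siTfe3/Tfeb cells the iron difference was smaller for most members. Above 0 were 31 of 49, against 49.1% of 14128 genes, and the median was 0.03 against -0.01 for all genes. Gaa, Scpep1, Lipa and Gnptg were at least 25% higher (8.16% of members, background 12.5%), and Man2b1 and Gm2a at least 20% lower (4.08%, background 12.9%). These shares lie below those of all genes, of which 1.61% passed 2-fold upward and 0.453% downward. Lumenal enzymes were above 0 in 22 of 29 with a median of 0.06. Membrane proteins were above 0 in 6 of 16, and their median of -0.01 turned to 0.04 when arrays were centred on their medians and to 0.01 in the authors' deposited matrix.

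The 2 iron differences share no array. Above 0 in both were 27 of 49 members (55.1%), against 33.5% of 13866 genes, with 19 of 29 enzymes and 5 of 16 membrane proteins. The enzymes below 0 in both were Man2b1, Idua, Dnase2a and Fuca1. Fuca1, at -0.02 in siTfe3/Tfeb cells and -0.06 in siGFP cells, lay within the spot SD of 0.063. So did Dnase2a in siTfe3/Tfeb cells, at -0.02. Across genes, the differences in siTfe3/Tfeb and siGFP cells had a Pearson r of 0.68 for the members and 0.68 for all genes, as a description only, since genes of 1 array are not independent. Subtracting the siGFP difference from the siTfe3/Tfeb difference gave 11 of 49 members above 0, against 50% of genes, and a median of -0.12 against 0.00 for all genes. The siGFP array without iron enters here as well, so this result is not independent of the iron difference in siGFP cells. The response in siTfe3/Tfeb cells was at least 20% below that in siGFP cells for Galc, Psap, Scarb2, Mcoln1 and Scpep1 (10.2% of members, background 9.06%) and at least 25% above it for Slc17a5 (2.04%, background 9.3%). A 2-fold ratio of responses was reached by 0.281% of all genes upward and 0.346% downward.

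**Figure D3:**
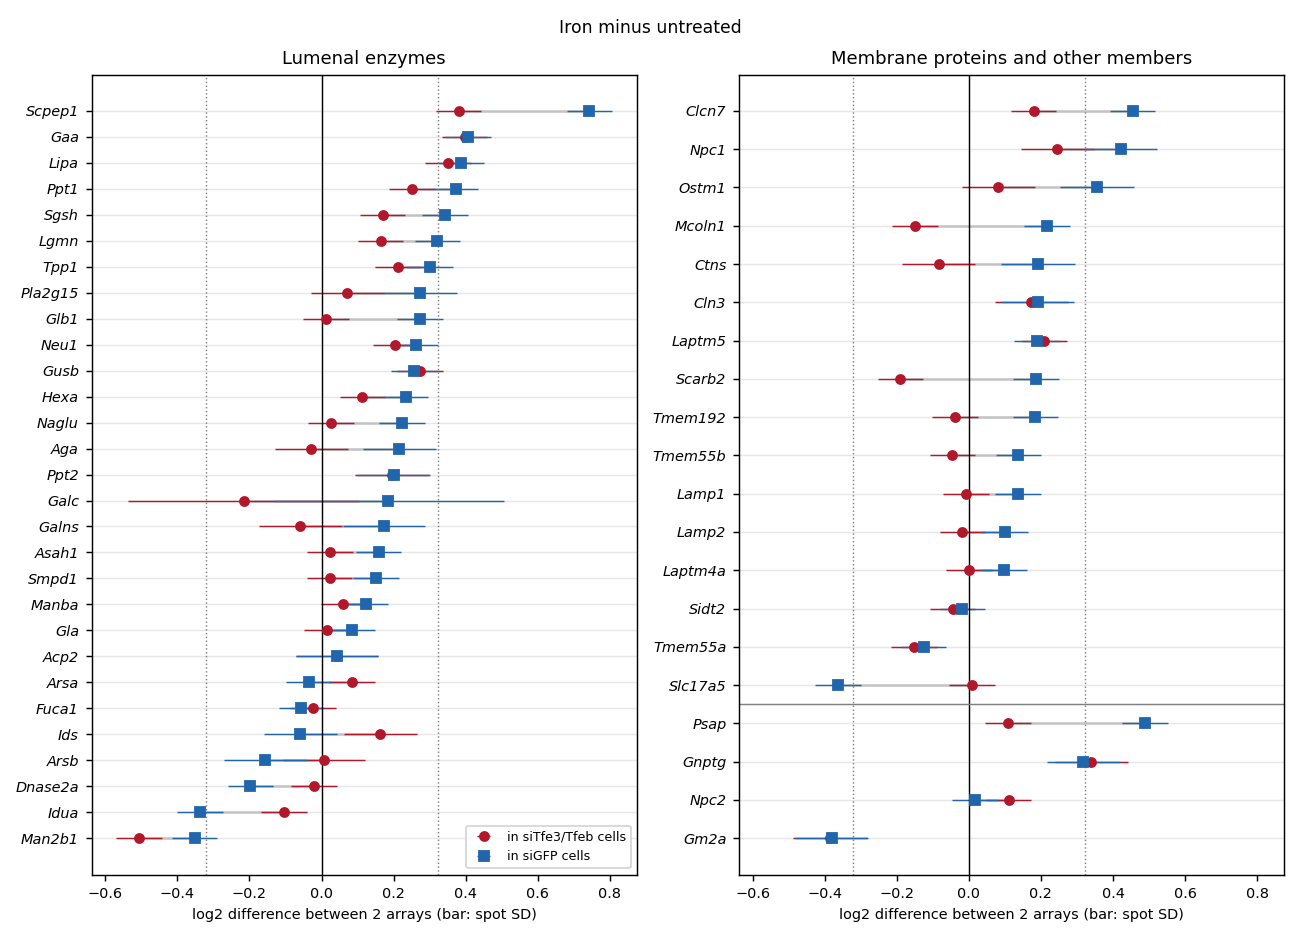
Log2 difference of iron minus untreated for each member in siTfe3/Tfeb cells (red circles) and siGFP cells (blue squares), sorted by the siGFP value, with bars of 1 spot SD and dotted lines at 25% higher and 20% lower. Most blue squares lie right of 0 and of their red circle, with Scpep1 farthest out at 0.74; Mcoln1 and Scarb2 lie on opposite sides of 0.

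Between siRNAs, members stood higher on the array labelled siTfe3/Tfeb when no iron was given. Of the 49, 37 were above 0, against 46.5% of 14322 genes, with a median of 0.17 against -0.03. At least 25% higher were 14 members (28.6%), against a background of 16.7%, and 10 of them were enzymes: Naglu, Galns, Galc, Scpep1, Lgmn, Ppt2, Glb1, Tpp1, Hexa and Man2b1. Mcoln1, Sidt2, Gm2a and Psap made up the rest. At least 20% lower were 3 members, Gusb, Gnptg and Acp2 (6.12%, background 19.7%). Over all genes, 1.39% passed 2-fold upward and 1.84% downward. The median was 0.16 over lumenal enzymes and 0.19 over membrane proteins.

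With iron the siRNA difference of the members was smaller than without iron and slightly above that of all genes. Above 0 were 30 of 49 members, against 47.2% of 14071 genes, with a median of 0.06 against -0.02. Naglu, Gm2a, Arsa, Arsb, Slc17a5, Ids, Ppt2 and Sidt2 were at least 25% higher (16.3%, background 12.9%), and Aga, Gusb, Gnptg, Acp2 and Cln3 at least 20% lower (10.2%, background 16.9%). Over all genes, 0.853% passed 2-fold upward and 1.34% downward. The enzyme median was 0.07, with 20 of 29 above 0. The membrane protein median was 0.01, with 8 of 16 above 0, and turned to -0.0037 with normexp background correction. Above 0 in both siRNA differences, which share no array, were 27 members (55.1%), against 35.8% of genes.

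**Figure D4:**
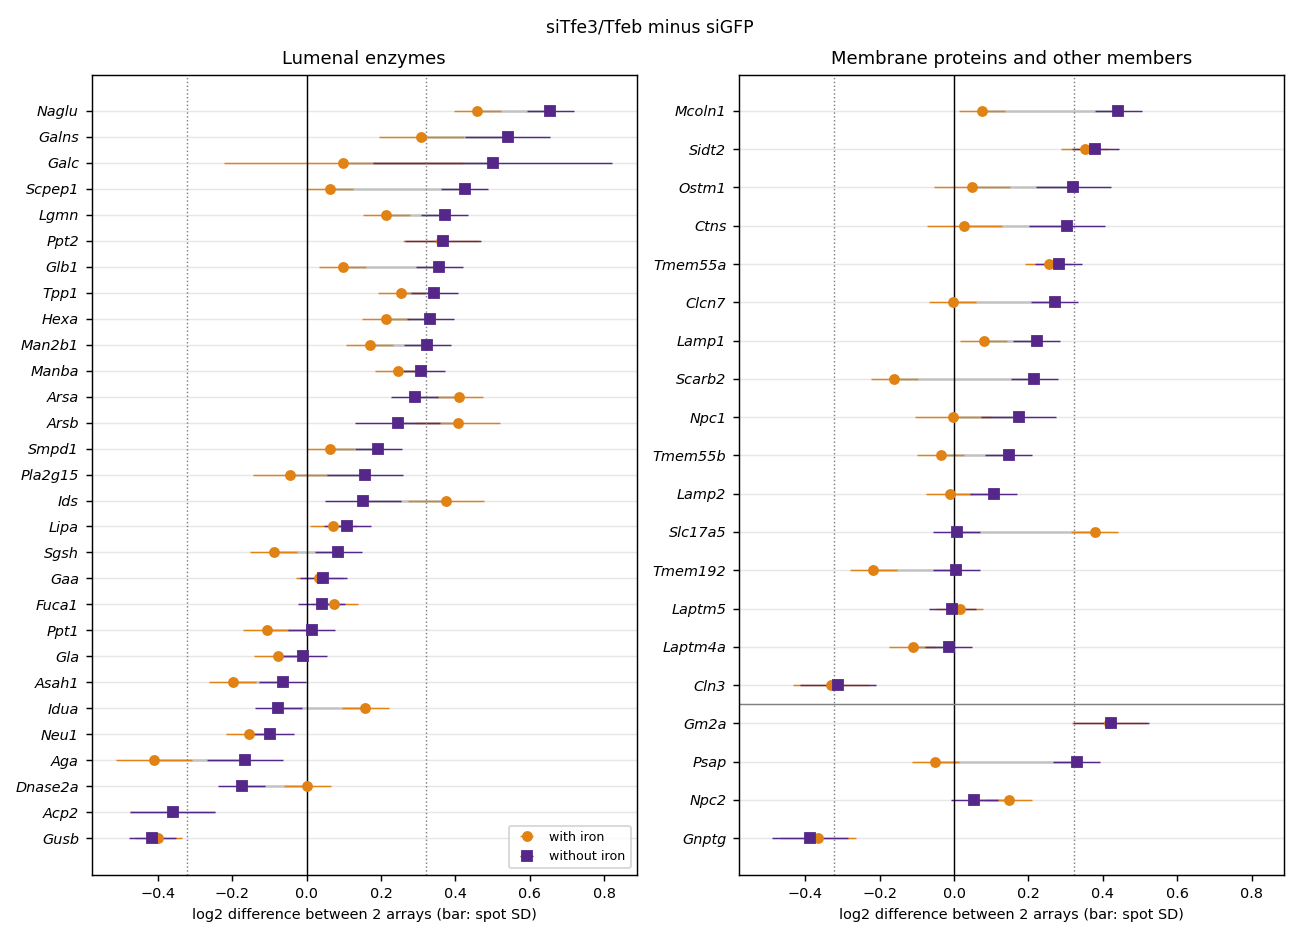
Log2 difference of siTfe3/Tfeb minus siGFP for each member with iron (orange circles) and without iron (purple squares), sorted by the value without iron, with bars of 1 spot SD and dotted lines at 25% higher and 20% lower. Naglu lies farthest right at both conditions; Gusb, Acp2, Gnptg and Cln3 lie left of 0 at both.

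Glycosidases cut sugars from glycoproteins, glycolipids and polysaccharides. Aga was grouped with them here, although the bond it cleaves joins asparagine to a sugar chain. Among the 13 members of this group, differences in either direction stood side by side. Naglu, which removes a terminal amino sugar of heparan sulfate, read 32.2 in siTfe3/Tfeb cells with iron, 31.6 in siTfe3/Tfeb cells without iron, 23.4 in siGFP cells with iron and 20.1 in siGFP cells without iron (probe on chromosome 11, 100938907 to 100938965, mm9). Both siTfe3/Tfeb arrays lay above both siGFP arrays, with log2 differences of 0.46 with iron and 0.66 without (spot SD 0.063). Gusb, which encodes beta-glucuronidase, showed the opposite order (probe on chromosome 5, 130465133 to 130465192). It read 32.0 in siTfe3/Tfeb cells with iron, 26.4 in siTfe3/Tfeb cells without iron, 42.1 in siGFP cells with iron and 35.3 in siGFP cells without iron. The siRNA differences of Gusb were -0.40 with iron and -0.42 without, and its iron differences 0.27 in siTfe3/Tfeb cells and 0.26 in siGFP cells. A far dimmer second Gusb probe also lay lower on both siTfe3/Tfeb arrays, by -0.67 with iron and -0.20 without.

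Gaa, which breaks down lysosomal glycogen, read 13.2 in siTfe3/Tfeb cells with iron, 10 in siTfe3/Tfeb cells without iron, 12.9 in siGFP cells with iron and 9.70 in siGFP cells without iron. Its iron differences of 0.40 in siTfe3/Tfeb cells and 0.41 in siGFP cells differed by less than the spot SD. Man2b1, an alpha-mannosidase, ran against iron, with 14.8 in siTfe3/Tfeb cells with iron, 20.9 in siTfe3/Tfeb cells without iron, 13.1 in siGFP cells with iron and 16.7 in siGFP cells without iron. The iron array was the lower one for both siRNAs, by -0.51 in siTfe3/Tfeb cells and -0.35 in siGFP cells, and Man2b1 was the lowest of the 49 in siTfe3/Tfeb cells. Idua, which removes iduronic acid from glycosaminoglycans, read 9.26 in siTfe3/Tfeb cells with iron, 9.95 in siTfe3/Tfeb cells without iron, 8.30 in siGFP cells with iron and 10.5 in siGFP cells without iron. Its iron differences were -0.10 in siTfe3/Tfeb cells and -0.34 in siGFP cells.

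Aga, which cleaves the bond between asparagine and its sugar chain, read 2.28 in siTfe3/Tfeb cells with iron, 2.33 in siTfe3/Tfeb cells without iron, 3.03 in siGFP cells with iron and 2.61 in siGFP cells without iron. It was the lowest of the 49 between siRNAs with iron, at -0.41 (spot SD 0.10), and stood at -0.17 without iron. Galc, which degrades galactosylceramide, was the dimmest member, with 0.0945 in siTfe3/Tfeb cells with iron, 0.110 in siTfe3/Tfeb cells without iron, 0.0882 in siGFP cells with iron and 0.0776 in siGFP cells without iron. Its difference between responses of -0.40 lay within the spot SD of 0.45 at that level. The other 6 were Hexa, Gla, Glb1, Neu1, Manba and Fuca1, whose iron differences ran between -0.02 and 0.21 in siTfe3/Tfeb cells and between -0.06 and 0.27 in siGFP cells. Among these, the beta-galactosidase gene Glb1 differed by 0.10 between siRNAs with iron and 0.36 without.

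The 5 sulfatases, which remove sulfate groups from lipids and glycosaminoglycans, all stood higher in siTfe3/Tfeb cells without iron (median 0.24), and 4 of 5 with iron (median 0.37). Arsa, which acts on sulfatides, read 4.86 in siTfe3/Tfeb cells with iron, 4.59 in siTfe3/Tfeb cells without iron, 3.66 in siGFP cells with iron and 3.75 in siGFP cells without iron. Arsb, which acts on dermatan sulfate, read 0.432 in siTfe3/Tfeb cells with iron, 0.430 in siTfe3/Tfeb cells without iron, 0.326 in siGFP cells with iron and 0.363 in siGFP cells without iron. Both siTfe3/Tfeb arrays were above both siGFP arrays for both genes, with differences with iron of 0.41 each. Ids, which removes sulfate from iduronic acid, read 4.07 in siTfe3/Tfeb cells with iron, 3.63 in siTfe3/Tfeb cells without iron, 3.14 in siGFP cells with iron and 3.27 in siGFP cells without iron. Galns, a sulfatase of keratan and chondroitin sulfate, read 1.06 in siTfe3/Tfeb cells with iron, 1.11 in siTfe3/Tfeb cells without iron, 0.859 in siGFP cells with iron and 0.761 in siGFP cells without iron. Both siTfe3/Tfeb arrays were again above both siGFP arrays, with differences of 0.31 with iron and 0.54 without, and a second Galns probe gave 0.23 and 0.34. Sgsh, the heparan sulfatase, was the exception, at -0.09 with iron and 0.08 without; its iron difference was 0.17 in siTfe3/Tfeb cells and 0.34 in siGFP cells.

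On their brightest probes, all 6 lipid enzymes stood higher with iron for both siRNAs, with a median of 0.13 in siTfe3/Tfeb cells and 0.24 in siGFP cells. Lipa, the acid lipase that frees cholesterol and fatty acids, read 22.7 in siTfe3/Tfeb cells with iron, 17.8 in siTfe3/Tfeb cells without iron, 21.6 in siGFP cells with iron and 16.5 in siGFP cells without iron. The iron arrays were the upper ones, by 0.35 in siTfe3/Tfeb cells and 0.39 in siGFP cells, and the siRNA differences of 0.07 with iron and 0.11 without stood beside a spot SD of 0.063. Ppt1, which removes palmitate from proteins, stood at 0.25 in siTfe3/Tfeb cells and 0.37 in siGFP cells. Its 4 other probes were also higher with iron, the brightest of them by 0.90 in siTfe3/Tfeb cells and 0.85 in siGFP cells and the next by 0.58 and 0.71, so the size of the Ppt1 difference depends on the probe. Its relative Ppt2 stood at 0.20 in each, and at 0.36 between siRNAs with iron and 0.37 without. A dimmer second Ppt2 probe was lower with iron, by -0.09 in siTfe3/Tfeb cells and -0.27 in siGFP cells. Smpd1 (acid sphingomyelinase), Asah1 (acid ceramidase) and Pla2g15 (a phospholipase) lay between 0.02 and 0.07 with iron in siTfe3/Tfeb cells and between 0.15 and 0.27 in siGFP cells. In siTfe3/Tfeb cells Smpd1 and Asah1 lay within the spot SD of 0.063. Their second probes gave -0.06 and -0.04 there, and 0.09 and 0.15 in siGFP cells.

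The 3 proteases stood higher in all 4 pairs of arrays. Scpep1, a serine carboxypeptidase, had the highest iron difference of the 49 in siGFP cells (probe on chromosome 11, 88785336 to 88785395). It read 31.5 in siTfe3/Tfeb cells with iron, 24.2 in siTfe3/Tfeb cells without iron, 30.1 in siGFP cells with iron and 18 in siGFP cells without iron. The siGFP array without iron was the lowest of the 4. Its iron difference was 0.38 in siTfe3/Tfeb cells and 0.74 in siGFP cells, and its siRNA difference 0.06 with iron and 0.42 without. A second Scpep1 probe gave 0.41 and 0.73 for iron and 0.15 and 0.46 between siRNAs, in the same order. Tpp1, a peptidase that trims peptides from their amino end, and Lgmn, which cuts after asparagine, were higher with iron by 0.21 and 0.16 in siTfe3/Tfeb cells and by 0.30 and 0.32 in siGFP cells.

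Acp2, the lysosomal acid phosphatase, read 0.579 in siTfe3/Tfeb cells with iron, 0.562 in siTfe3/Tfeb cells without iron, 0.743 in siGFP cells with iron and 0.721 in siGFP cells without iron. It differed by siRNA, at -0.36 with and without iron (spot SD 0.11), and by 0.04 with iron for both siRNAs. Dnase2a, which degrades DNA in lysosomes, read 13.7 in siTfe3/Tfeb cells with iron, 13.9 in siTfe3/Tfeb cells without iron, 13.7 in siGFP cells with iron and 15.7 in siGFP cells without iron. Only the siGFP array without iron stood apart, and the mean over the 3 Dnase2a probes turned the siRNA difference without iron from below 0 to 0.14. That mean also turned the iron difference in siGFP cells from -0.20 to 0.02.

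Psap, the precursor of the saposins that help enzymes reach sphingolipids, read 21.8 in siTfe3/Tfeb cells with iron, 20.2 in siTfe3/Tfeb cells without iron, 22.5 in siGFP cells with iron and 16.1 in siGFP cells without iron. The iron difference was 0.11 in siTfe3/Tfeb cells and 0.49 in siGFP cells, and the siGFP array without iron was again the low one. Gm2a, the activator that presents ganglioside to hexosaminidase, read 1.46 in siTfe3/Tfeb cells with iron, 1.90 in siTfe3/Tfeb cells without iron, 1.09 in siGFP cells with iron and 1.42 in siGFP cells without iron. It was lower with iron by -0.39 in siTfe3/Tfeb cells and -0.38 in siGFP cells, and higher in siTfe3/Tfeb cells by 0.42 with and without iron. Gnptg, of the tagging enzyme, read 2.90 in siTfe3/Tfeb cells with iron, 2.29 in siTfe3/Tfeb cells without iron, 3.74 in siGFP cells with iron and 3 in siGFP cells without iron. It ran opposite to Gm2a in both factors, with iron differences of 0.34 in siTfe3/Tfeb cells and 0.32 in siGFP cells and siRNA differences of -0.37 with iron and -0.39 without. Its second probe gave -0.35 and -0.30 between siRNAs. Npc2, the lumenal cholesterol carrier, stood within 0.15 of 0 in every comparison.

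The 3 membrane glycoproteins, which line the inner face of the lysosomal membrane, were above 0 with iron in siGFP cells and below 0 in siTfe3/Tfeb cells on their brightest probes, but their other probes did not all follow. Lamp1, an abundant glycoprotein, stood at -0.01 in siTfe3/Tfeb cells, within the spot SD of 0.063, and at 0.14 in siGFP cells, and its second probe gave 0.0089 and 0.28. Lamp2 stood at -0.02 in siTfe3/Tfeb cells and 0.10 in siGFP cells. A second Lamp2 probe gave 0.35 for both siRNAs, and the dimmest -0.32 in siTfe3/Tfeb cells and 0.03 in siGFP cells. Scarb2, which escorts glucocerebrosidase to lysosomes, read 4.11 in siTfe3/Tfeb cells with iron, 4.69 in siTfe3/Tfeb cells without iron, 4.60 in siGFP cells with iron and 4.04 in siGFP cells without iron. The iron difference was -0.19 in siTfe3/Tfeb cells and 0.19 in siGFP cells. A second, dimmer Scarb2 probe, which read 2.46 in siTfe3/Tfeb cells with iron, 4.06 in siTfe3/Tfeb cells without iron, 2.07 in siGFP cells with iron and 2.77 in siGFP cells without iron, gave -0.72 and -0.42, so its probes disagree on the sign in siGFP cells.

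Of 7 channel and transporter genes, 5 were above 0 with iron in siTfe3/Tfeb cells and 6 in siGFP cells. Clcn7, the chloride and proton exchanger of the lysosomal membrane, read 8.01 in siTfe3/Tfeb cells with iron, 7.07 in siTfe3/Tfeb cells without iron, 8.03 in siGFP cells with iron and 5.86 in siGFP cells without iron (probe on chromosome 17, 25298967 to 25299026). The iron arrays were close to each other and the siGFP array without iron was lowest, with iron differences of 0.18 in siTfe3/Tfeb cells and 0.45 in siGFP cells. Ostm1, the subunit that pairs with Clcn7, gave 0.08 and 0.36 in the same order, and its far dimmer second probe 0.58 and -0.13. Npc1, which exports cholesterol with Npc2, read 3.22 in siTfe3/Tfeb cells with iron, 2.71 in siTfe3/Tfeb cells without iron, 3.22 in siGFP cells with iron and 2.41 in siGFP cells without iron. Its iron differences were 0.25 in siTfe3/Tfeb cells and 0.42 in siGFP cells, and the mean over the 3 probes measured in siTfe3/Tfeb cells, the other two far dimmer, turned that difference to -0.10.

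Mcoln1, a cation channel that releases calcium and ferrous iron from lysosomes, read 8.34 in siTfe3/Tfeb cells with iron, 9.25 in siTfe3/Tfeb cells without iron, 7.92 in siGFP cells with iron and 6.81 in siGFP cells without iron (probe on chromosome 8, 3515111 to 3515170). Iron went with a lower level in siTfe3/Tfeb cells (-0.15) and a higher one in siGFP cells (0.22), and the siRNA difference was 0.07 with iron and 0.44 without. A far dimmer Mcoln1 probe gave -0.43 with iron in siTfe3/Tfeb cells and was not well above background in siGFP cells. Slc17a5, the sialic acid exporter, read 8.56 in siTfe3/Tfeb cells with iron, 8.51 in siTfe3/Tfeb cells without iron, 6.59 in siGFP cells with iron and 8.47 in siGFP cells without iron. The siGFP array with iron stood alone, with an iron difference of 0.01 in siTfe3/Tfeb cells and -0.36 in siGFP cells, but a dimmer Slc17a5 probe gave -0.02 and 0.35. Cln3, a membrane protein that is mutated in juvenile Batten disease in humans, read 3.04 in siTfe3/Tfeb cells with iron, 2.70 in siTfe3/Tfeb cells without iron, 3.83 in siGFP cells with iron and 3.35 in siGFP cells without iron. Both siTfe3/Tfeb arrays lay below both siGFP arrays, by -0.33 with iron and -0.31 without, and of its 2 other probes the brighter gave -0.21 and -0.29 and the dimmest 0.04 and 0.10. Ctns, the cystine exporter, stood at -0.08 with iron in siTfe3/Tfeb cells and 0.19 in siGFP cells.

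The other 6 membrane proteins stayed between 20% lower and 25% higher with iron for both siRNAs. Sidt2 was more than 25% higher in siTfe3/Tfeb cells on its brightest probe, by 0.35 with iron and 0.38 without. Of its dimmer probes, 1 gave 0.25 and 0.15 and another -0.08 and -0.45, so the Sidt2 probes disagree on the sign. Tmem55a, a phosphoinositide phosphatase, stood at 0.25 with iron and 0.28 without between siRNAs. Laptm5, a lysosomal membrane protein found mainly in blood cells, was higher with iron by 0.21 in siTfe3/Tfeb cells and 0.19 in siGFP cells. Tmem192, Tmem55b and Laptm4a were above 0 with iron in siGFP cells (0.18, 0.14 and 0.10). Laptm4a was level with iron in siTfe3/Tfeb cells and the other two slightly below 0, with Tmem55b lowest at -0.05, and a dimmer Tmem55b probe gave -0.21 in siTfe3/Tfeb cells and 0.40 in siGFP cells.

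Set side by side, enzymes and membrane proteins differed little. The enzyme median minus the membrane protein median was 0.07 for iron in siTfe3/Tfeb cells, 0.02 for iron in siGFP cells, 0.07 between siRNAs with iron, -0.04 between siRNAs without iron and 0.07 for the difference of iron responses. The interquartile range of the enzymes ran between 0.01 and 0.20 with iron in siTfe3/Tfeb cells and that of the membrane proteins between -0.06 and 0.10, and the 2 overlapped in the other 4 comparisons too. Of 16 membrane proteins, 8 were below 0 with iron in siTfe3/Tfeb cells and above 0 in siGFP cells, against 3 of 29 enzymes and 1718 of 13866 genes. For 5 of the 8 (Lamp1, Lamp2, Laptm4a, Tmem192 and Tmem55b) the value below 0 was smaller than 0.055, the amount by which centring arrays on their medians moved all genes in that comparison. Members are not replicates of a condition, and no test of the classes was made.

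**Figure D5:**
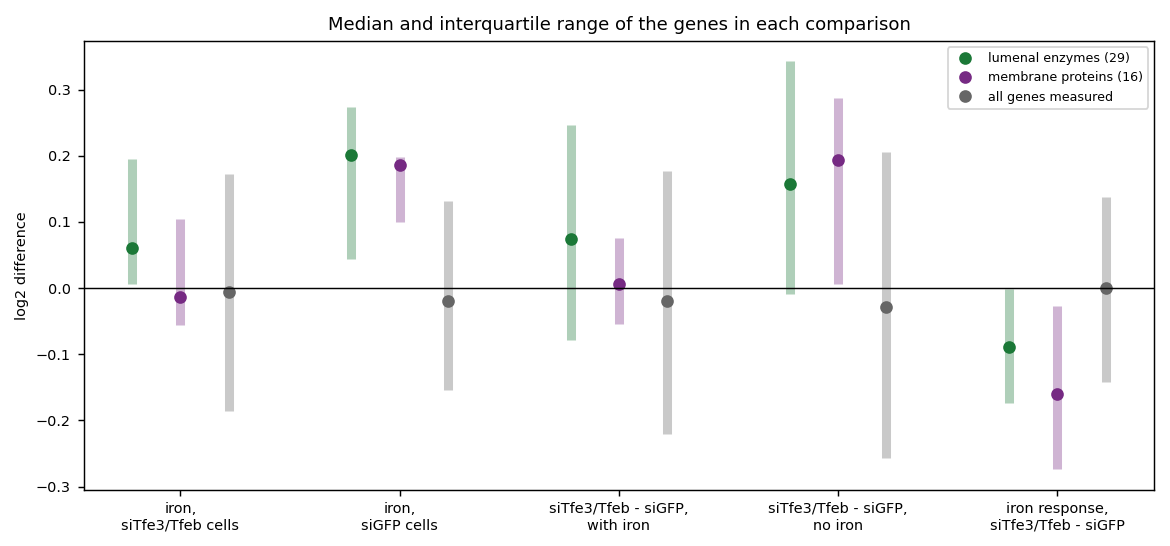
Median (points) and interquartile range (bars) of the log2 difference over the 29 lumenal enzymes, the 16 membrane proteins and all genes measured, for the 5 comparisons. The 2 classes lie above all genes for iron in siGFP cells and between siRNAs without iron. They lie below all genes for the difference of iron responses. Each of these comparisons holds the siGFP array without iron.

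Members with and without the E-box letters in their promoter window had similar medians for iron and between siRNAs. The medians lay further apart for the difference of iron responses. For iron the 13 members with TCACGTG had a median of 0.08 in siTfe3/Tfeb cells and 0.22 in siGFP cells, and the 31 without it 0.04 and 0.18. Between siRNAs the medians were 0.03 with iron and 0.22 without for members with the letters, and 0.06 and 0.16 for members without them. The difference of iron responses was -0.16 with the letters (2 of 13 above 0) and -0.06 without (9 of 31 above 0). Over the other genes with the letters the medians lay between -0.06 and 0.01 in the 5 comparisons.

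Other lysosomal genes on the arrays were read from lists. The counts below stand beside shares over all genes, given above, of 12.5% higher and 12.9% lower with iron in siTfe3/Tfeb cells and 10.5% and 9.1% in siGFP cells. Of 24 measured genes on a list of other lysosomal enzymes and their cofactors, 6 were at least 25% higher with iron and 3 lower in siTfe3/Tfeb cells. In siGFP cells 9 were higher and 1 lower. The list also holds genes that do not encode lysosomal enzymes, among them Creg1 and Glmp, which count as higher for both siRNAs. Creg1, a secreted lysosomal glycoprotein, was 0.87 higher in siTfe3/Tfeb cells and 0.93 in siGFP cells. Hyal1, a hyaluronidase, had the largest siRNA difference of that list, 1.41 with iron and 1.71 without. Acp5, the tartrate-resistant acid phosphatase, ran the other way at -0.73 and -1.37. Of 29 measured other membrane proteins, 7 were higher with iron and 2 lower in siTfe3/Tfeb cells, against 11 and 1 in siGFP cells. Slc11a1, a metal transporter of phagosomes, led them at 1.66 in siTfe3/Tfeb cells and 1.42 in siGFP cells, and Slc46a3 was 0.20 higher between siRNAs with iron and 1.16 without.

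Among 19 subunits of the vacuolar ATPase, the proton pump of lysosomes, 8 were at least 25% higher with iron in siTfe3/Tfeb cells and 13 in siGFP cells, with none lower. Atp6v0d2 differed by 2.69 in siTfe3/Tfeb cells and 2.34 in siGFP cells, and by -2.11 between siRNAs with iron and -2.46 without. Of 12 measured cathepsins, 5 were higher with iron for each siRNA, with 2 lower in siTfe3/Tfeb cells and 1 in siGFP cells. Ctsd was near 2-fold higher with iron, at 1.0 in siTfe3/Tfeb cells and 0.97 in siGFP cells. Of 21 sorting genes, which bring hydrolases to lysosomes, 4 were higher and 2 lower with iron in siTfe3/Tfeb cells (19.0% and 9.5%), and 3 and 2 in siGFP cells (14.3% and 9.5%), shares near those of all genes. Igf2r, a receptor for the mannose tag, stood at 0.72 and 0.47 in that order. Of 14 measured MiT/TFE targets outside the lysosome, 6 were higher and 1 lower with iron in siTfe3/Tfeb cells, and 8 and 0 in siGFP cells, led by Sqstm1 (1.07 and 1.13) and Gpnmb (0.97 and 1.42).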

How the data were processed

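Per the labels' protocols, total RNA of RAW264 cells was labelled with Cy3 and hybridised to SurePrint G3 mouse arrays, all 4 on 1 slide per the file headers. The deposited scanner files, made with Agilent Feature Extraction 12.0.3.1 per the submitters' processing notes, give a processed intensity per spot, already corrected for background and for trends across the array per the file headers, with no scaling from array to array. The authors' deposited matrix holds log2 values. Regressed on the scanner values, its differences gave slope 1.0 and r 1.0 in all 5 comparisons, and every probe was centred on a median of 0 across arrays to within 5e-07. Its column medians were 0.0013 in siTfe3/Tfeb cells with iron, -0.087 in siTfe3/Tfeb cells without iron, 0.022 in siGFP cells with iron and -0.0042 in siGFP cells without iron.

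Processed signals were put on the log2 scale and the 75th percentile over non-control spots was subtracted for each array, after leaving out the 61 to 66 outlier spots per array and averaging repeated spots. Of 56605 probes, 33767 were named by accession and 10177 by symbol through RefSeq (GRCm38.p6, names and promoters only), and 12661 had no gene; members were taken by the name in the files. Probe coordinates are those of the array design (mm9, per the file headers). A gene entered a comparison where it was well above background on its arrays. Members named array by array are the 4 highest and 4 lowest differences of each comparison, and other lists give up to 2 genes per comparison. The members, lists and bins of spot noise were chosen with earlier results of these data known. The procedure was tested on simulated data. Columns of other samples numbered 0.

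The alternatives tried were median centring, quantile normalization, normexp (offset 50) with percentile or quantile scaling, the authors' matrix, the mean over all probes, no background filter, a filter on all 4 arrays, outlier spots kept, and the 4 other members counted as enzymes. Tools were Python 3.11.15 with pandas 2.3.3 and numpy 2.4.6, also used for quantile normalization, and R 4.3.3 with limma 3.58.1 for normexp.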

Additional observations from a re-analysis of the deposited data

Results flagged for a closer look

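For 2 membrane protein genes the iron difference had opposite signs under the 2 siRNAs, each by more than 2 spot SDs. Scarb2 stood at -0.19 with iron in siTfe3/Tfeb cells and 0.19 in siGFP cells. Mcoln1 stood at -0.15 in siTfe3/Tfeb cells and 0.22 in siGFP cells. With arrays centred on their medians the Mcoln1 value in siTfe3/Tfeb cells was -0.094, within 2 spot SDs of 0.063 each. With 1 array per group the difference between the responses was not tested. The second Scarb2 probe was below 0 under both siRNAs, at -0.72 in siTfe3/Tfeb cells and -0.42 in siGFP cells.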

How the results depend on the processing

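The medians of both classes moved by at most 1 spot SD under every alternative, except between siRNAs with iron under median centring. There the enzyme median was 0.17 in place of 0.07 and the membrane protein median 0.10 in place of 0.01. The spot SD, 0.063 for bright probes, is as large as some of these medians, so staying within it does not mean that a median kept its size. Median centring moved the median of all genes by 0.055 for iron in siTfe3/Tfeb cells, beside an enzyme median of 0.06. For the difference of iron responses it moved that median by 0.071, beside an enzyme median of -0.09. Between siRNAs with iron it moved the median of all genes by 0.095. It also left 0 members at least 20% lower there beside 12 higher, in place of 5 and 8, and 1 in place of 5 lower in the difference of iron responses. Normexp with quantile normalization gave 3 lower between siRNAs with iron. Quantile normalization, with or without normexp, gave 2 in place of 4 members at least 25% higher with iron in siTfe3/Tfeb cells. The mean over all probes gave 0 in place of 1 member higher in the difference of iron responses, which for Slc17a5 was then -0.000714 in place of 0.37. Of 1080 values of single members under alternatives, 1025 kept their sign and 71 moved by more than 1 spot SD. The 1080 include 120 values each for no background filter and for a filter on all 4 arrays. Neither setting could move a member, since every member was well above background on all 4 arrays. Keeping outlier spots and using the authors' matrix also moved none of their 120 values each by more than 1 spot SD. The cause of the changes under the other settings was not tested.

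No paired analysis was possible because each group held 1 array and the labels give no replicate numbers, and for the same reason no replicate could be left out. Differences of Galc, the dimmest member, are limited by its spot SD of 0.32.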
